A study of Mus musculus with 10 samples.

Results

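Integrin chains whose heterodimers bind the tripeptide arginine-glycine-aspartate (RGD), together with 3 of their ligands, were followed in dorsal root ganglia (DRGs) that lack Lkb1. The 10 genes were the beta chains Itgb1, Itgb3, Itgb5, Itgb6 and Itgb8, the alpha chains Itgav and Itga5, and the ligands fibronectin (Fn1), vitronectin (Vtn) and osteopontin (Spp1). Of these, 9 had a probe set whose annotation names that gene alone, each with 1 such probe set, among 19938 genes with a probe set of this kind. Spp1 had none and is not analysed here. The genes were selected on expression differences between the genotypes that were already known from these same arrays. Their values, fold changes and p-values are therefore a description.

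The microarrays held DRGs of 5 Lkb1 KO pools and 5 WT pools at E13.5, each pool made from 2 embryos and hybridised to 1 array. In Lkb1 KO embryos a Wnt1-Cre transgene had deleted floxed Lkb1 (gene symbol Stk11). Wnt1-Cre is active in the neural crest, the source of DRG neurons and glia, and also in the dorsal neural tube and the midbrain. Endothelial and blood cells in a ganglion descend from other lineages. WT embryos were littermates, and all mice were of mixed genetic background. Values are RMA expression levels on the log2 scale, in which a difference of 1 is a doubling. They rank samples for a gene and do not rank genes against each other.

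Stk11 itself was at 7.68 to 7.94 in Lkb1 KO and at 8.51 to 9.08 in WT, with no overlap. Array medians lay between 6.5 and 6.57. Markers of the labelled tissue were present, in that all 14 measured sensory neuron genes had means above 6.5 and their mean was 10.13 to 10.24 in Lkb1 KO and 10.28 to 10.44 in WT. The pools differed in the sex of the embryos. Lkb1 KO replicates 2 and 5 had Xist signal and almost no signal of Y-linked genes, and no WT pool was like them. Because these are whole ganglia, more cells of a type and more RNA per cell cannot be told apart in any result below.

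An integrin is a heterodimer of an alpha and a beta chain that spans the membrane and ties the extracellular matrix to the actin cytoskeleton. The αv chain pairs with β1, β3, β5, β6 or β8, while α5 pairs with β1 to form the classical fibronectin receptor. These receptors recognise RGD in fibronectin, vitronectin, osteopontin and the latency peptide of TGF-β, and αvβ6 and αvβ8 are known for releasing active TGF-β from that peptide. In the embryo, fibronectin lines the routes of migrating neural crest cells, and integrins of the β1 class carry growing sensory axons over fibronectin and laminin.

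Of the 9 measured genes, 3 were higher in Lkb1 KO by limma's adjusted p, taken at 0.05, namely Itgb8, Itgb3 and Itgav, and none was lower. Over all genes tested, 3.87% passed, 2.49% higher and 1.38% lower. At an unadjusted p under 0.05, Fn1 joined them as the fourth gene, where 15.3% of all genes passed in either direction. With pools paired by number the same 3 of the 9 passed, against 6.42% of all genes in either direction and 3.59% higher. That pairing, used below as well, was inferred from these same values and is given by no label. The median log2 fold change (Lkb1 KO minus WT) of the 9 genes was 0.14, against -0.002 over all genes. At the stricter adjusted p of 0.01, the false discovery rate of the methods, Itgb8 and Itgb3 passed, against 1.57% of all genes in either direction and 1.16% higher.

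For Itgb8 and Itgav, which were both higher and whose proteins form a receptor together, and for Itgb5, a beta chain of the same alpha chain that did not pass the test, the 250 bases before the RefSeq start of transcription (GRCm38.p6) are shown. Capitals mark matches to GGGCGG on either strand, the box bound by Sp1.
Itgb8, chr12:119238277-119238526, minus strand: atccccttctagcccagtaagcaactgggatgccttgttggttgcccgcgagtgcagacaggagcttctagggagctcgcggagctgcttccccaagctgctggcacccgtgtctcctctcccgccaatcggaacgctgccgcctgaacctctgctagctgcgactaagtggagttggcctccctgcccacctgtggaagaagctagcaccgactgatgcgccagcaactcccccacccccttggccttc
Itgav, chr2:83724147-83724396, plus strand: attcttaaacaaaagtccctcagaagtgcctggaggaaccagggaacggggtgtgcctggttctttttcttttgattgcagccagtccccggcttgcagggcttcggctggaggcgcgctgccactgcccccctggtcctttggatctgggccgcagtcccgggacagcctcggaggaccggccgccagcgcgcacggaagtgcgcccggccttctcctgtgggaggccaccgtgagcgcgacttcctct
Itgb5, chr16:33829415-33829664, plus strand: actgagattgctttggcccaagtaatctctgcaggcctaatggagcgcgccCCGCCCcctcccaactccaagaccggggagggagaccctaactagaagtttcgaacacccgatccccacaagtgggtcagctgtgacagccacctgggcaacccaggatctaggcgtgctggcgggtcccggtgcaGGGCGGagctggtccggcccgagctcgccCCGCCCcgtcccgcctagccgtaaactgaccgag
RefSeq windows were at hand for 8 of the 10 genes, in 10 windows, and Itgb3 and Fn1 were not among them. The Itgb8 and Itgav windows held no GGGCGG, nor did those of Itgb6, Vtn and Spp1, while the Itgb5 window held 3, Itga5 held 2 and Itgb1 held 1, against 32.7% of 32851 windows of this length that held at least 1. None of the 10 windows held a cAMP response element (TGACGTCA, in 1.55% of all windows) or an AP-1 site (TGANTCA, in 6.75%). The letters of a TEAD site (GGAATG, in 12.6%) occurred once each in the Itgb1 and Vtn windows. These matches describe the printed letters and say nothing of binding.

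Itgb3 encodes the β3 chain, which joins αv in a receptor for vitronectin, osteopontin and fibronectin and joins αIIb on platelets. Itgb3 was at 8.21, 8.36, 8.38, 8.32 and 8.27 in Lkb1 KO replicates 1 to 5 and at 7.63, 7.55, 7.59, 7.45 and 7.53 in WT replicates 1 to 5. Every Lkb1 KO pool lay above every WT pool, with 0.58 between the lowest Lkb1 KO and the highest WT value, where the SD within a group was 0.07 in both. The log2 fold change was 0.76 (SE, standard error, 0.05, 95% confidence interval, CI, 0.66 to 0.85, limma adjusted p = 1.36e-06), so that Lkb1 KO exceeded WT 1.69-fold. Itgb3 ranked 36 among all genes by size of rise and 10 by unadjusted p.

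Itgb8 encodes the β8 chain, which pairs with αv. Itgb8 was at 9.43, 9.47, 9.60, 9.44 and 9.20 in Lkb1 KO replicates 1 to 5 and at 8.70, 8.44, 8.56, 8.42 and 8.30 in WT replicates 1 to 5. The groups did not overlap, although both spread wider than for Itgb3, with an SD of 0.14 in Lkb1 KO and 0.15 in WT. The log2 fold change was 0.94 (SE 0.08, 95% CI 0.77 to 1.12, limma adjusted p = 3.43e-05), a 1.92-fold higher level in Lkb1 KO and rank 20 among the rises of all genes. Of the 9 genes, Itgb3 and Itgb8 were those without overlap, a pattern seen for 5.34% of all genes in either direction and for 3.09% with Lkb1 KO higher.

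Itgav encodes the αv chain, the partner that β3 and β8 share. Itgav was at 9.28, 9.21, 9.19, 9.17 and 9.04 in Lkb1 KO replicates 1 to 5 and at 8.95, 9.06, 8.90, 8.75 and 8.67 in WT replicates 1 to 5. The groups overlapped by 0.02, because Lkb1 KO replicate 5 lay just below WT replicate 2, and the other 4 Lkb1 KO pools lay above all WT pools. The log2 fold change was 0.31 (SE 0.07, 95% CI 0.16 to 0.47, limma adjusted p = 0.0275), a 1.24-fold higher level in Lkb1 KO. This call was lost when any 1 of Lkb1 KO replicates 1, 2, 3 and 4 or WT replicates 3 and 4 was left out, with adjusted p-values from limma between 0.0539 and 0.077. Paired by replicate number its adjusted p was 0.00359.

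**Figure D1:**
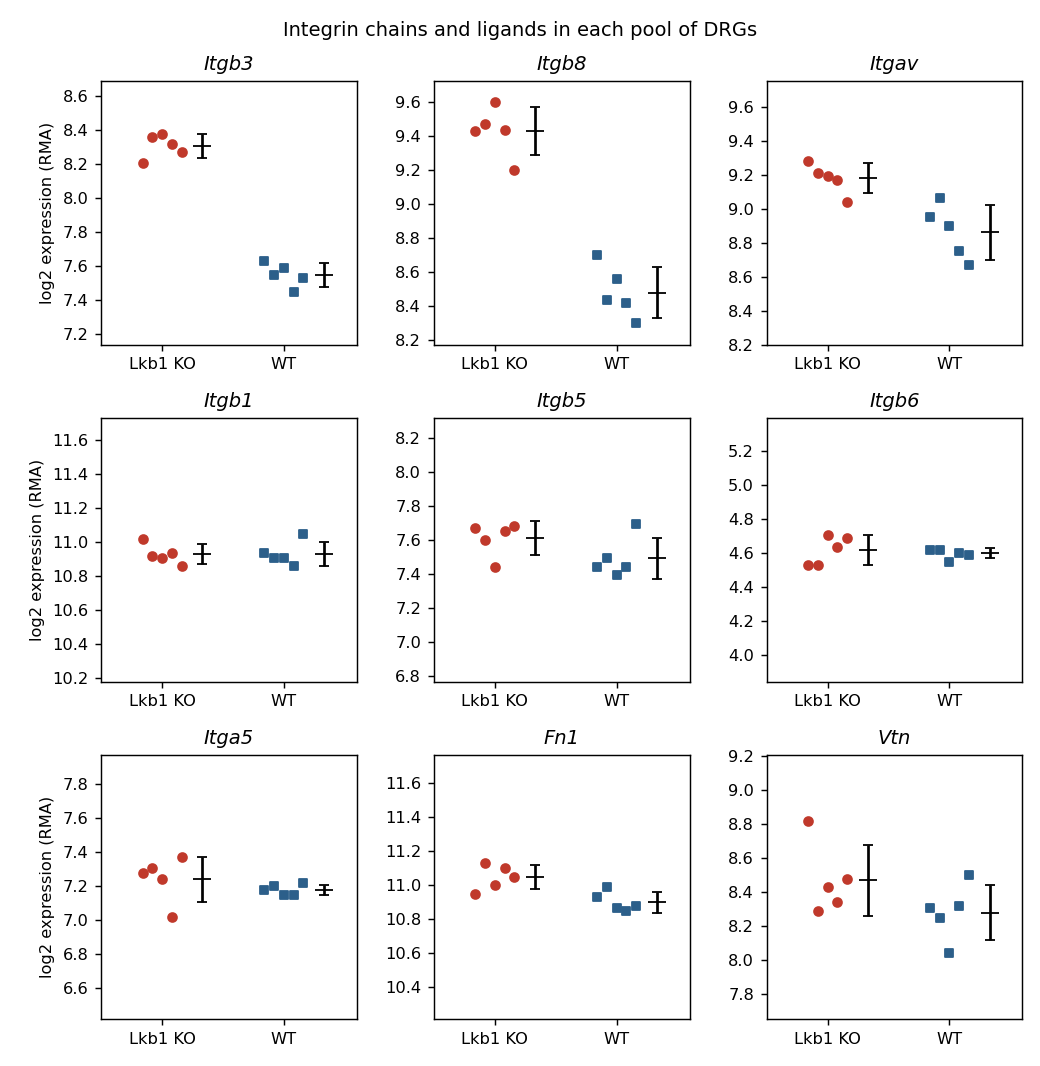
RMA level (log2, y axis) of 9 genes, with 1 point for each Lkb1 KO (red circles) and WT (blue squares) pool in order of replicate number and the mean and SD of 5 pools next to the points; all panels cover an equal log2 span. The 2 genotypes are apart for Itgb3 (8.31 against 7.55 on average) and Itgb8 (9.43 against 8.48), nearly apart for Itgav and overlap for the other genes.

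The remaining beta chains did not pass the test. Itgb1, the common partner of many alpha chains, was at 10.86 to 11.02 in Lkb1 KO and 10.86 to 11.05 in WT, and its log2 fold change of -0.005 had a 95% CI from -0.10 to 0.09 (limma adjusted p = 0.979). In fold terms that interval runs from 0.933 to 1.07. Itgb5, an αv partner that binds vitronectin, was at 7.44 to 7.68 in Lkb1 KO and 7.39 to 7.69 in WT, a log2 difference of 0.12 (95% CI -0.02 to 0.25, limma adjusted p = 0.432). WT replicate 5 was the highest of all 10 pools for Itgb5. Itgb6, an epithelial beta chain, was at 4.53 to 4.71 in Lkb1 KO and 4.55 to 4.62 in WT, and its log2 fold change was 0.02 (95% CI -0.07 to 0.12, limma adjusted p = 0.867). Only 5.06% of genes had a lower mean than Itgb6, so that a change of Itgb6 could lie below what these arrays show. Itga5, the alpha chain of the classical fibronectin receptor, was at 7.02 to 7.37 in Lkb1 KO and 7.15 to 7.22 in WT. Lkb1 KO replicate 4 was the lowest of the 10 pools for Itga5 and the other 4 Lkb1 KO pools lay above all WT pools. The log2 difference was 0.06 (95% CI -0.06 to 0.19, limma adjusted p = 0.700), with 0.118 without Lkb1 KO replicate 4 (0.142) and 0.031 without Lkb1 KO replicate 5 (0.854).

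The ligands did not pass the test either. Fn1, which encodes fibronectin, was at 10.95, 11.13, 11, 11.10 and 11.05 in Lkb1 KO replicates 1 to 5 and at 10.93, 10.99, 10.87, 10.85 and 10.88 in WT replicates 1 to 5. The 2 groups met only where Lkb1 KO replicate 1 lay below WT replicate 2, and the log2 fold change was 0.14 (SE 0.04, 95% CI 0.05 to 0.24, limma adjusted p = 0.115 and 0.0785 with the replicate number as a block). Vtn, which encodes vitronectin, was at 8.82, 8.29, 8.43, 8.34 and 8.48 in Lkb1 KO replicates 1 to 5 and at 8.31, 8.25, 8.04, 8.32 and 8.50 in WT replicates 1 to 5. Lkb1 KO replicate 1 stood above the rest for Vtn, and the log2 fold change of 0.19 (95% CI -0.03 to 0.41, limma adjusted p = 0.414) became 0.10 without it.

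To set Itgb3 against its partner and the other beta chains, the log2 value of each other gene was subtracted from that of Itgb3 on the same array, and the mean of these differences was compared between genotypes. This cancels shifts of a whole array and constant offsets between probes, but not differences in how steeply probes respond, which were not tested. The change of Itgb3 exceeded that of Itgav by 0.44 on the log2 scale (95% CI 0.26 to 0.62), that of Itgb1 by 0.76 (0.62 to 0.90), that of Itgb5 by 0.64 (0.42 to 0.86) and that of Itgb6 by 0.73 (0.61 to 0.85). It exceeded that of Itga5 by 0.69 (0.51 to 0.88) and that of Fn1 by 0.61 (0.52 to 0.71). In these 6 comparisons the Lkb1 KO and WT pools did not overlap, as was already so for Itgb3 alone. The share of all genes with such a gap from Itgb3 was not computed. Those with Itgb1, Itga5 and Itgb6, whose own changes were small, add little to the change of Itgb3 itself. Itgb6 also lay near the lowest signal of the arrays. Against Vtn the excess was 0.57 (0.22 to 0.91), with overlapping pools. Itgb8 went the other way, since the change of Itgb3 was smaller than that of Itgb8 by a difference of -0.19 (95% CI -0.36 to -0.02), and the pools overlapped. Paired by replicate number, the change of Itgb3 was the smaller in 5 of 5 pairs, and the SE of the difference was 0.021, against 0.072 unpaired. The change of Itgb8 in turn exceeded that of Itgav by 0.63 (0.45 to 0.81) and that of Itgb1 by 0.95 (0.71 to 1.19). Since the genes were chosen for such differences, no p-value is attached to them.

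**Figure D2:**
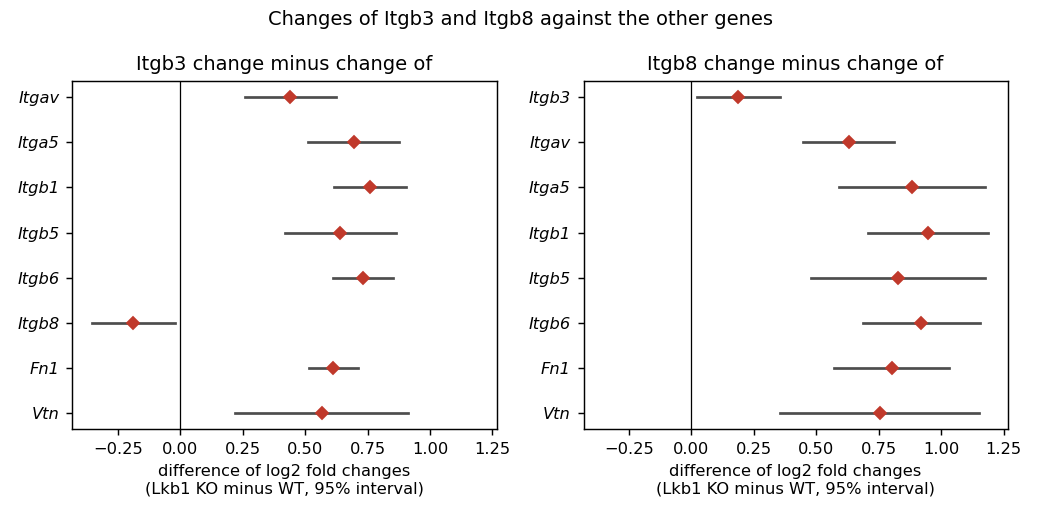
Difference between the log2 fold change (Lkb1 KO minus WT) of Itgb3 (left) or Itgb8 (right) and that of each gene on the y axis, from within-array differences; points are estimates and bars 95% CIs from 5 pools a genotype. All bars lie above 0 except that of Itgb3 minus Itgb8, at -0.19.

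The 3 higher chains were also compared among pools with the same Y-linked and Xist signal. The Lkb1 KO pools in these comparisons lay above all WT pools for each of the 3 genes. The sign was therefore fixed in advance, and only the sizes are informative. Among pools with both Y-linked and Xist signal (2 Lkb1 KO and 2 WT) the difference, Lkb1 KO minus WT, was 0.76 for Itgb3, 1.00 for Itgb8 and 0.32 for Itgav. Among pools with Y-linked and no Xist signal (1 Lkb1 KO and 3 WT) it was 0.79, 1.08 and 0.35. Without the 2 Lkb1 KO pools that lack Y-linked signal Itgb3 and Itgb8 still passed the test, whereas the adjusted p of Itgav from limma was 0.0599. Within replicate numbers, Lkb1 KO exceeded its WT namesake by 0.58 to 0.87 for Itgb3, by 0.73 to 1.04 for Itgb8 and by 0.14 to 0.43 for Itgav. For Itgb3 and Itgb8 any pairing gives this sign, since the groups do not overlap. For Itgav only Lkb1 KO replicate 5 against WT replicate 2 could reverse it, and these do not share a number.

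Across the 10 arrays Itgb3 and Itgb8 had a Pearson correlation of 0.98, and Itgav had 0.83 with Itgb3 and 0.87 with Itgb8. The points share the genotype contrast, which alone raises such values. After the mean of each genotype was subtracted, the correlation was 0.65 between Itgb3 and Itgb8, 0.30 between Itgb3 and Itgav and 0.59 between Itgb8 and Itgav. Fn1 had 0.52 with Itgb3 and 0.06 with Itgb8 on these deviations, and Itgb1 had -0.08 with both. Other pairs had either sign on these deviations, such as -0.75 between Itgb5 and Itgb8, -0.44 between Itgb5 and Itgb3 and -0.61 between Vtn and Itgb3. On the positive side were 0.65 between Itgb1 and Vtn and 0.62 between Itgb1 and Itgb5. None of these correlations was tested. The closest patterns to Itgb3 over 10 arrays, among 10366 genes with a mean above 6.5, were those of I730030J21Rik (r = 0.993), the myelin-associated glycoprotein gene Mag (0.992), the cAMP phosphodiesterase gene Pde7b (0.988), Creb3l2 (0.987) and the endocytic adaptor gene Dab2 (0.985). The most opposite were the glial cadherin gene Cdh19 and AI593442 (both -0.979), the neuronal RNA-binding protein gene Elavl4 (-0.974), Pth1r (-0.971) and Efhd1 (-0.970). On deviations from the genotype means the closest to Itgb3 were Wdr11 (0.907), Tesk1 (0.889), Sorcs2 (0.888), Trim27 (0.878) and Krba1 (0.875). These are the highest of 10366 values from 10 arrays. Whether they exceed what unrelated genes would give was not tested.

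Among the other 19 integrin chains, 3 were higher and 1 was lower in Lkb1 KO by the same rule (7 and 2 at an unadjusted p under 0.05), where 2.49% and 1.38% of all genes were. The median log2 fold change of these chains was 0.07. The laminin receptor chain gene Itga6 was at 10.28 in Lkb1 KO and 10.09 in WT on average, a log2 difference of 0.19 (SE 0.04, limma adjusted p = 0.0135) without overlap. Of the collagen receptor chains, Itga1 showed a log2 difference of 0.40 (SE 0.10, limma adjusted p = 0.043) and Itga2 of -0.35 (SE 0.08, limma adjusted p = 0.0234). Itga10 stood at 0.16 (limma adjusted p = 0.172, and 0.0307 with the replicate block, where it was called higher) and Itga11 at 0.14 (0.128, and 0.153 with the block). Itgb4, which pairs with α6, showed a log2 difference of 0.15 (SE 0.04, limma adjusted p = 0.041 and 0.0594 with the replicate block). The calls of Itga1, Itga2 and Itgb4 were lost when any 1 of 6 to 8 single pools was left out, with adjusted p-values from 0.0529 to 0.114, and that of Itga6 was kept whichever single pool was left out. All 4 calls were lost without both Lkb1 KO pools that lack Y-linked signal (adjusted p from 0.0943 to 0.157). Itga8, whose product forms a further RGD receptor with β1, was at 6.77 in Lkb1 KO and 6.62 in WT (limma adjusted p = 0.271). Itga2b, the platelet partner of β3, was at 5.60 in Lkb1 KO and 5.52 in WT (limma adjusted p = 0.306). The leukocyte chains Itgb2, Itgb7, Itgal, Itgam, Itgax and Itgae did not pass the test. Their group means were low, from 4.53 (Itgam) to 5.35 (Itgal in Lkb1 KO), so that a change could lie below what these arrays show.

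**Figure D3:**
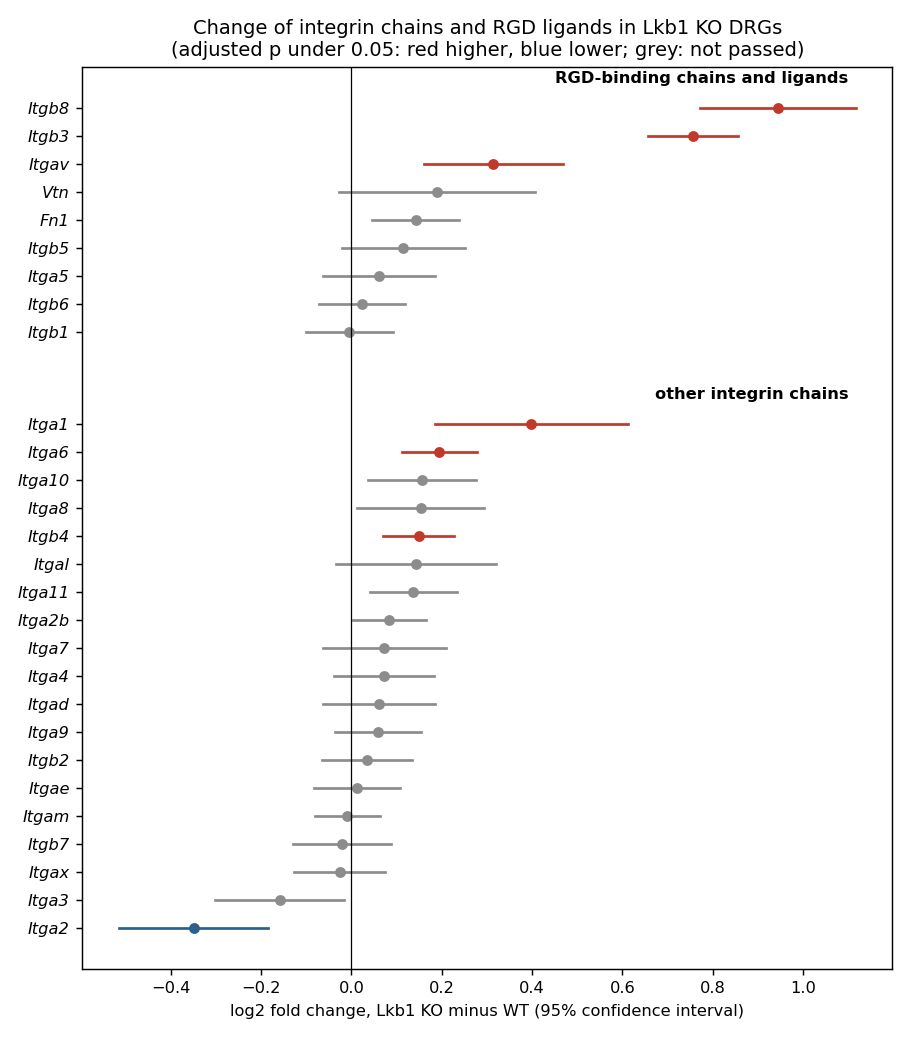
Difference between Lkb1 KO and WT (log2, x axis, Lkb1 KO minus WT, with 95% CIs from limma) of 9 RGD-binding chains and ligands and 19 other integrin chains (y axis), coloured where the adjusted p was under 0.05 (red higher, blue lower). Itgb8 (0.94) and Itgb3 (0.76) lie farthest to the right, and Itga2 (-0.35) farthest to the left.

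The list of other candidate RGD ligands held 19 measured genes, of which 2 were higher and none was lower (7 and 1 at an unadjusted p under 0.05). Of all genes, 2.49% were higher and 1.38% lower, and 15.3% passed at an unadjusted p under 0.05. The median log2 fold change of the list was 0.03. Fbln5, which encodes the elastic fibre protein fibulin-5 with an RGD motif that binds αv integrins, was at 9.72 in Lkb1 KO and 8.19 in WT on average. Its log2 fold change of 1.53 (SE 0.15, limma adjusted p = 8.12e-05) was larger than that of any measured integrin chain. The basement membrane gene Nid1 showed a log2 difference of 0.32 (SE 0.04, limma adjusted p = 4.05e-04). With the replicate number as a block Tgfbi, Thbs1 and Tgfb3 passed the test as well (adjusted p = 4.21e-04, 0.0432 and 0.0374 from limma). Without it their adjusted p-values were 0.052, 0.063 and 0.202. Their log2 fold changes were 0.39, 0.20 and 0.17. With the block 5 of the list were thus higher, where 3.59% of all genes were. Tgfb1, whose latency peptide is a ligand of αvβ8, was at 7.16 in Lkb1 KO and 7.11 in WT (limma adjusted p = 0.853). The neuronal adhesion gene L1cam showed a log2 difference of -0.17 (limma adjusted p = 0.108), and without WT replicate 5 it was called at -0.21 (0.0295). Vwf, which encodes von Willebrand factor, stood at 0.14 (0.111) and was called at 0.17 without that pool (0.0471).

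Of 16 genes of integrin co-receptors, latent TGF-β handling and fibronectin matrix assembly, 3 were higher and none was lower (7 and 0 at an unadjusted p under 0.05). Of all genes, 2.49% were higher and 1.38% lower, and 15.3% passed at an unadjusted p under 0.05. The median log2 fold change of the 16 was 0.11. The 3 were the heparan sulphate proteoglycan genes Sdc2 and Sdc4, whose products, the syndecans, bind fibronectin, and Lrrc32, whose product tethers latent TGF-β. Sdc2 was at 8.27 in Lkb1 KO and 7.86 in WT on average, a log2 difference of 0.41 (SE 0.055, limma adjusted p = 0.00104) without overlap. Sdc4 showed a log2 difference of 0.25 (limma adjusted p = 0.0362) and Lrrc32 of 0.18 (0.0324), and each of these 2 calls was lost without any 1 of 7 single pools (0.0536 to 0.100). With the replicate block Nrros, the related tether of microglia and macrophages, and Kdr were higher too (adjusted p = 0.029 and 0.049). This made 5, where 3.59% of all genes were higher.

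Of 33 measured genes of the intracellular machinery of integrin adhesion, 2 were higher and 1 was lower, a share of 9.09% against 3.87% of all genes. At an unadjusted p under 0.05, 6 were higher and 2 lower, where 15.3% of all genes passed, and the median log2 fold change was 0.04. The actin linker gene Parva (0.18, limma adjusted p = 0.0367) and the adaptor gene Pxn, which encodes paxillin (0.16, adjusted p = 0.0484, and 0.0527 with the replicate block), were higher, and Tns1, which encodes tensin 1, was lower (-0.19, adjusted p = 0.0297). Each was lost without any 1 of 6 to 9 single pools (adjusted p from 0.052 to 0.119) and without both Lkb1 KO pools that lack Y-linked signal (0.0636 to 0.230). Tns1 was also lost when the probe sets of a gene were averaged (-0.11, adjusted p = 0.260). Dock1 stood at 0.16 with an adjusted p of 0.0518 and was called with the replicate block (0.0397). The activators of integrins, the talin genes Tln1 (0.07) and Tln2 (-0.10) and the kindlin gene Fermt2 (0.04), did not pass the test, nor did Ilk (0.03) or Vcl (-0.06).

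**Figure D4:**
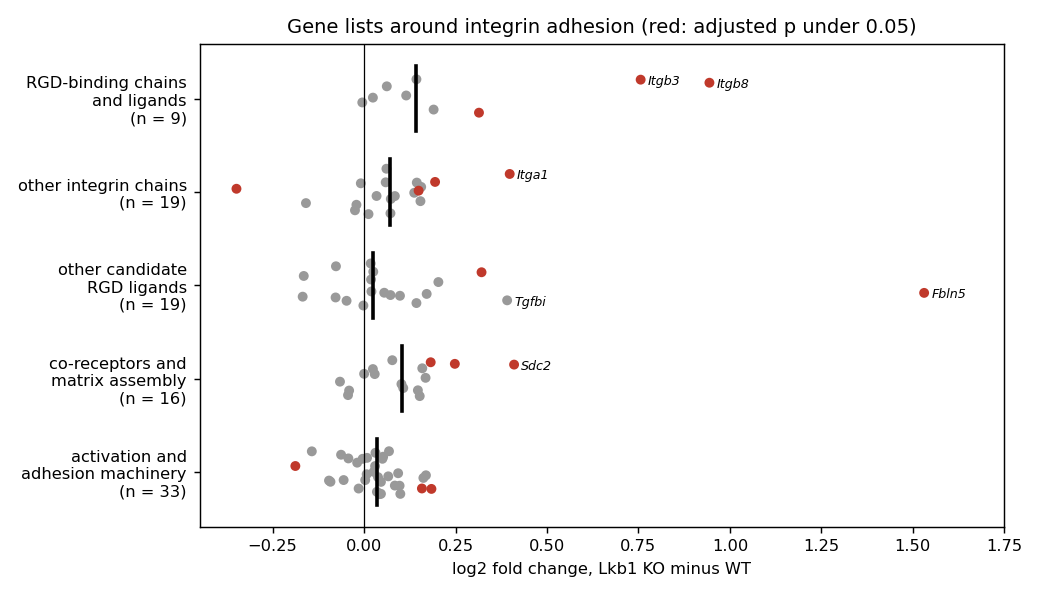
Genes of 5 lists (y axis, with the number measured) placed by their Lkb1 KO minus WT difference on the log2 scale (x axis), in red for those called at an adjusted p of 0.05 and in grey for the rest; a black bar marks the median of a list, and genes above 0.35 are named. Fbln5 (1.53), Itgb8 (0.94) and Itgb3 (0.76) lie to the right, and medians run from 0.03 to 0.14.

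Some marker lists moved with the genotype beside these integrins, and others had few or no calls. For the counts below, 2.49% of all genes were higher and 1.38% lower, and 15.3% passed at an unadjusted p under 0.05. Lkb1 KO was higher in 12 of 22 fibroblast and mesenchyme genes and lower in none by the test, and the mean of the list was 7.77 to 7.83 in Lkb1 KO and 7.56 to 7.65 in WT. Postn had a log2 fold change of 0.36, Lum of 0.50, Col3a1 of 0.44 and Col1a2 of 0.30. Of 14 genes of dividing cells 11 were higher and none was lower, with means of 8.88 to 9.14 in Lkb1 KO and 8.53 to 8.75 in WT. In 14 pericyte and smooth muscle genes 2 were higher, Mcam at 0.59 and Anpep at 0.28, with means of 6.85 to 7.01 in Lkb1 KO and 6.74 to 6.81 in WT. In 14 endothelial genes 1 was higher, the tight junction gene Cldn5 at 0.29, with means of 7.87 to 8.16 in Lkb1 KO and 7.87 to 7.94 in WT. Of 12 Schwann cell and satellite glia genes, Dhh was higher at 0.69, Cdh19 and Ngfr were lower at -0.50 and -0.21, and the means were 8.59 to 8.65 in Lkb1 KO and 8.60 to 8.68 in WT. Of 14 sensory neuron genes Isl1 and Elavl4 were lower at -0.25 and -0.18, all 14 had negative differences, and 11 were lower at an unadjusted p under 0.05, with a median of -0.19. With the replicate block Ntrk2 (-0.28, adjusted p = 0.0446), Ret (-0.19, 0.0136), Runx3 (-0.33, 0.0166) and Avil (-0.26, 0.0163) were lower as well. In the other marker lists the block added Pdgfra (0.0392), Mcm2 (0.0226), Mcm5 (0.0349), Pdgfrb (0.0212), Kcnj8 (0.0455), Kdr (0.049) and Egr2 (0.0133) as higher. It added Mbp (0.00322) as lower and lost Col5a1 (0.062). Of all genes, 6.42% passed with the block. None of 14 macrophage genes passed the test in limma (0 also at an unadjusted p under 0.05), with means of 6.19 to 6.29 in Lkb1 KO and 6.13 to 6.26 in WT. None of 8 measured platelet and megakaryocyte genes did either (2 higher at an unadjusted p under 0.05), with means of 5.73 to 5.92 in Lkb1 KO and 5.74 to 5.82 in WT. Only 2 of these 8 and 6 of the 14 macrophage genes had a mean above 6.5. A change of the dimmer ones could lie below what these arrays show. Without both Lkb1 KO pools that lack Y-linked signal, Top2a, Cdk1, Aurka, Aurkb, Rrm2, Tyms and Plk1 lost their calls. Their adjusted p-values from limma were 0.0566 to 0.206. Col5a1, Col6a1, Twist1, Anpep, Ngfr and Elavl4 lost theirs there too (0.0564 to 0.141). Leaving out 1 pool lost the calls of Col5a1, Col6a1, Dcn, Anpep, Ngfr, Cdk1, Rrm2, Tyms and Plk1 in some fits (0.0513 to 0.123). The part of other cells in the levels of Itgb3, Itgb8 and Itgav was not tested. When the fibroblast and mesenchyme mean entered the model as a covariate, which itself had a correlation of 0.963 with genotype, the log2 fold changes were 1.00 for Itgb3, 1.67 for Itgb8 and 0.58 for Itgav, with adjusted p-values from limma of 0.119, 0.0537 and 0.857.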

How the data were processed

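RNA from DRGs of 5 Lkb1 KO and 5 WT pools (250 ng per one-colour, biotin-labelled array) was measured. The authors deposited log2 values of 35556 probe sets, for which RMA and Partek 6.6 are listed in the submitters' processing notes and MATLAB in the methods. No source used here gives a genome build. Scanner files were not used here.

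Of the probe sets, 21789 were annotated to 1 gene, 1621 to several and 12146 to none listed. The brightest probe set per gene over the 10 arrays left 19938 genes. Names follow RefSeq (GRCm38.p6) for 21698 probe sets. No filter on dim genes was used. Sample titles gave the groups and replicate numbers.

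Lkb1 KO was compared with WT in limma 3.58.1 (R 4.3.3; lmFit, eBayes, two-sided) over all genes, with Benjamini-Hochberg adjustment and a call at an adjusted p under 0.05. Intervals of within-array differences used the pooled SD. Python 3.11.15, pandas 2.3.3 and matplotlib 3.10.9 served for other steps. The fit was tested on simulated data.

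The genes and gene lists were chosen with earlier results of these data known. Named were all measured genes of the set, Stk11, up to 4 genes per list with the smallest unadjusted p, called genes of the adhesion lists, and the 5 genes most alike, most opposite and most alike in deviations to Itgb3. Other genes, such as Itga8, Itga10, Itga11, Ret, Runx3, Avil, the leukocyte chains, Tgfb1, Tgfb3, L1cam, Vwf, Tln1, Tln2, Fermt2, Ilk and Vcl, were chosen after their values were seen. The same holds for marker genes named because their call was lost or gained in another setting.

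Same-numbered pools deviated together from their genotype means (correlations across genes of 0.21 to 0.48; different numbers -0.48 to 0.31), and numbers were treated as pairs on the basis of these values, because no label explains them. No arrays were identical (SD of log2 differences within a group 0.120 to 0.198). The labels call the samples biological replicates. Alternatives were other normalizations, moderation, weights, filters, probe set rules, covariates, the replicate block and single pools left out. Protein sequences were not used here, so the RGD motif itself was not searched for. The number of arrays, 5 a group, sets the precision.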

Additional observations from a re-analysis of the deposited data

How the results depend on the processing

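Itgb3 and Itgb8 passed the test in each of the 10 fits that left out 1 pool (log2 fold changes 0.73 to 0.78 and 0.898 to 1.00) and in the other 13 settings, except with the fibroblast and mesenchyme mean as a covariate (1.00, adjusted p = 0.119, and 1.67, adjusted p = 0.0537). Itgav kept its direction throughout and ranged from 0.265 to 0.364 with 1 pool left out. Its call was lost with the Y-linked mean as a covariate (0.35, adjusted p = 0.0707), without both Lkb1 KO pools that lack Y-linked signal (0.35, 0.0599), with ordinary analysis of variance gene by gene (0.31, 0.111), with the fibroblast and mesenchyme covariate (0.58, 0.857) and at 0.01 (0.31, 0.0275). The 3 higher genes of the set became 2 to 3 with 1 pool left out and 0 with the fibroblast and mesenchyme covariate.

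Over all genes, 496 were higher and 275 lower, with 333 to 487 and 146 to 347 when 1 pool was left out (146 without WT replicate 3, 148 without WT replicate 2, 152 without WT replicate 4, 182 without WT replicate 1, 173 without Lkb1 KO replicate 4 and 179 without Lkb1 KO replicate 3). The counts were 260 and 127 with the analysis of variance, 288 and 171 without both pools that lack Y-linked signal, 231 and 82 at 0.01, and 1 and 0 with the fibroblast and mesenchyme covariate. The Y-linked covariate left 285 higher. The replicate block gave 565 lower and 715 higher genes, and changed no call within the set of 9.

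Estimates near 0 changed sign without a call. Itgb1 was at 0.004 with array weights, 0.013 with cyclic loess, 0.027 with the Y-linked covariate, 0.02 without both pools that lack Y-linked signal and between -0.027 and 0.025 with 1 pool left out. Itga5 was at -0.002, -0.001 and -0.022 with the Y-linked covariate, without those pools and with the fibroblast and mesenchyme covariate. Larger reversals, also without a call, came with the fibroblast and mesenchyme covariate, which had a correlation of 0.963 with genotype. There Itgb5 went from 0.115 to -0.53 and Vtn from 0.19 to -0.56.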
